A study of Mus musculus with 16 samples.

Results

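The comparison described here followed the exposed cultures of a macrophage line over time: the 4 libraries labelled as exposed to Mycobacterium abscessus at day 5 were set against the 4 exposed libraries of day 1. These 8 libraries were taken by their labels from the 16 of the series, and the test was fitted on them alone. The cells were MPI-2, a wild-type mouse line of alveolar-like macrophages that had been kept in medium with GM-CSF and serum and split regularly. All replicates, labelled as biological, came from this single line, so p-values measure the spread between cultures of 1 line and not between animals. Day 1 and day 5 libraries were both exposed. Strain, dose and the fraction of infected cells are not given in the sources used here, and each value is an average over a culture. The other 8 libraries, uninfected cells of the same line at day 1 and at day 5 (4 each), served to show which changes also occurred with days in culture and no exposure. By the series title, the interest lay in senescence of cells that carry a chronic infection.

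Alveolar macrophages live in the airspaces of the lung, depend on GM-CSF, and clear inhaled particles and microbes. Mycobacteria are sensed through Toll-like and lectin receptors, which act through NF-kB to switch on cytokines, chemokines and acute-phase proteins, and through interferon, which switches on a further set of defence genes. Activated macrophages commonly turn from respiration towards glycolysis, and many leave the cell cycle. Senescent cells are known for a lasting arrest, loss of lamin B1, raised CDK inhibitors and a secretion of inflammatory factors.

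RNA was measured as polyadenylated transcripts, in counts per gene. Totals lay between 46154875 (day 1, replicate 4) and 81995629 counts (day 1, replicate 1) among the exposed libraries, with no order between the days. Levels are given as CPM, counts divided by library totals adjusted by the trimmed mean of M-values, which sets no level of one gene against another because gene length is not taken out. Changes are log2 fold changes of day 5 over day 1 with their standard error over 4 against 4 libraries, and a gene is said to have risen or fallen only where edgeR's quasi-likelihood test gave an adjusted p under 0.05. In bulk RNA a change per cell and a change in the share of cells that express a gene cannot be told apart. All 14 general macrophage markers looked for, such as Csf1r, Spi1 and Lyz2, were tested, though counts in the libraries of 1 day suffice for that. Their summed level lay between 6468 and 7449 CPM at day 1 and between 8870 and 14299 CPM at day 5. Lyz2 gave most of it (means of 4075 and 7899 CPM).

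The first principal component of the 8 exposed libraries held 70.5% of the variance and separated the days, with day 1 at -66.94 to -60.96 and day 5 at 39.17 to 82.2. Day 5 libraries differed more among themselves: the median standard deviation per gene was 0.299 on the log2 scale, against 0.144 at day 1 and 0.113 and 0.148 in the uninfected groups. Day 1 replicate 4 stood apart from its group on the second component (-21.97 against 10.25 to 12.02). Day 5 replicates 2 and 3 carried another series of library codes than the other exposed libraries and lay at the opposite ends of that component (45.87 and -55.56). Without replicates 2 and 3 of day 5, 3546 genes were called higher and 3672 lower, and without these 2 and day 1 replicate 4 the counts were 4013 and 3944. Mitochondrially encoded transcripts took 2.12% ± 0.356 of counts at day 1 and 0.904% ± 0.195 at day 5 (SD, n = 4), a difference in which the days did not overlap (exact permutation test, two-sided, p = 0.0286, the smallest that 4 against 4 can give, 0.0857 after adjustment over 6 library measures). Whether this difference or the day 5 spread had a part in the results below was not tested.

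Between day 1 and day 5 of exposure, 3636 of 16404 tested genes rose (22.2%) and 3390 fell (20.7%), 42.8% in all, and the day 1 and day 5 libraries did not overlap for 42.3%. Of the called genes, 1847 rose at least 2-fold (11.3% of tested genes) and 996 fell at least 2-fold (6.07%). The median log2 fold change over all tested genes was 0.01. The uninfected libraries, fitted alone, showed 3386 genes higher (21.5% of 15777) and 3038 lower (19.3%) at day 5, but 632 (4.01%) and 65 (0.412%) by at least 2-fold.

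The transcripts Il1b, Lcn2 and Saa3 had been set as markers of the exposed course. Il1b (ENSMUSG00000027398.14), the cytokine interleukin-1 beta, stood at 32.5, 29.5, 38.7 and 38.6 CPM in the day 1 libraries (replicates 1 to 4 in this order, here and below) and at 787, 2441, 1293 and 2263 CPM at day 5. Lcn2 (ENSMUSG00000026822.15), lipocalin 2, which binds bacterial iron carriers, stood at 1.21, 0.901, 1.23 and 1.32 CPM and then at 57.4, 109, 65.7 and 118 CPM. Saa3 (ENSMUSG00000040026.9), which encodes an acute-phase serum amyloid, went from 2.86, 2.10, 2.86 and 3.83 CPM to 71.3, 126, 129.9 and 142 CPM. All day 5 libraries lay far above all day 1 libraries for the 3 genes, and replicates 2 and 4 were the highest at day 5 for Il1b and Lcn2. The log2 fold changes were 5.61 ± 0.36 (adjusted p = 2.45e-06), 6.24 ± 0.28 (adjusted p = 3.16e-07) and 5.35 ± 0.26 (adjusted p = 3.16e-07). In uninfected cells Il1b rose by 0.64 ± 0.10 on the same scale, while Lcn2 (0.06 ± 0.20) and Saa3 (-0.59 ± 0.24) were not called. The exposed course exceeded the uninfected one by 4.98 ± 0.38 for Il1b, 6.19 ± 0.38 for Lcn2 and 5.94 ± 0.37 for Saa3 (interaction, adjusted p = 9.27e-08, 9.29e-09 and 1.31e-08). Lcn2 at exposed day 1 (1.16 ± 0.181 CPM, SD) lay under its uninfected day 1 level (3.13 ± 0.349 CPM).

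**Figure D1:**
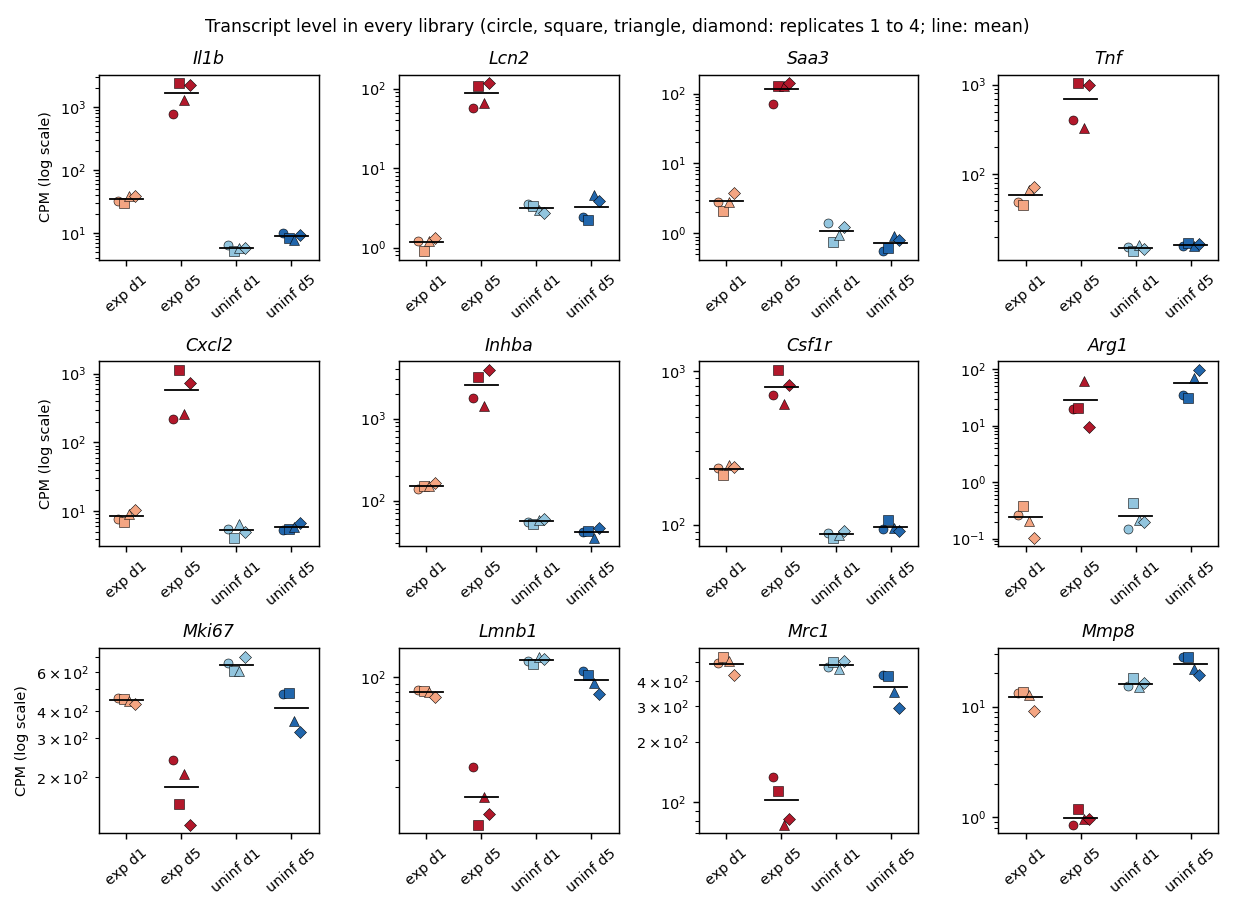
Level of 12 genes in each of the 16 libraries, in CPM on a log axis, for exposed (exp) and uninfected (uninf) cells at day 1 (d1) and day 5 (d5); symbols stand for replicates and the line for the group mean. Exposed day 5 libraries lie above exposed day 1 for Il1b, Lcn2, Saa3, Tnf, Cxcl2, Inhba, Csf1r and Arg1 and below for Mki67, Lmnb1, Mrc1 and Mmp8, and Arg1 is also high in uninfected cells at day 5.

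Most cytokine genes rose. Here and below, counts of called list members are to be read beside the shares of all tested genes, 22.2% higher and 20.7% lower. Of 21 tested cytokine genes 16 rose and 2 fell, with a median log2 fold change of 2.66. Tnf, tumour necrosis factor, stood at 48.6, 45.0, 66.0 and 72.3 CPM at day 1 and at 400.0, 1045, 328 and 981 CPM at day 5 (3.57 ± 0.38, adjusted p = 5.66e-05). Il6, interleukin-6, went from 2.10, 1.95, 2.62 and 2.41 CPM to 19.3, 121, 32.4 and 96.0 CPM (4.89 ± 0.55, adjusted p = 7.43e-05). Day 5 replicates 2 and 4 were the high libraries for both, replicates 1 and 3 the low ones, and neither gene overlapped between days. Inhba, which encodes the activin A subunit, rose from between 138 and 166 CPM to between 1427 and 3920 CPM (4.10 ± 0.31), while in uninfected cells it fell by 0.43. Il1a, the alarmin interleukin-1 alpha, rose by 3.36 ± 0.36 on the log2 scale. The members that fell were Il18 (-1.80 ± 0.17, adjusted p = 2.06e-05), a cytokine of the interleukin-1 family that caspase-1 matures, from 82.7, 88.7, 91.6 and 97.0 CPM to 29.4, 20.7, 33.5 and 19.3 CPM, and Il33 (-1.02 ± 0.19), an alarmin of the same family. Both rose in uninfected cells over the same days, and the courses differed by -2.12 ± 0.18 for Il18 and -1.51 ± 0.21 for Il33.

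Of 16 tested chemokines 13 rose and 0 fell (median 3.01). Cxcl2, a neutrophil attractant, went from 7.59, 6.92, 9.03 and 10.49 CPM to 216, 1133, 256 and 727 CPM (6.10 ± 0.55, adjusted p = 2.04e-05), and the monocyte attractant Ccl2 from 4.58, 4.14, 3.47 and 3.25 to 15.6, 118, 29.3 and 135 CPM (4.26 ± 0.63, adjusted p = 0.000358). The 4 day 5 libraries lay above day 1 for both, and replicates 2 and 4 were the high ones. The T-cell attractants Ccl17 (5.50 ± 0.34) and Ccl22 (2.75 ± 0.28) rose as well and were not called in uninfected cells. Ccl6, a macrophage chemokine, was not called (-0.29 ± 0.18, adjusted p = 0.229) with all libraries, but was called lower without day 5 replicates 2 and 3 (-0.53, adjusted p = 0.0296). Its uninfected level rose (0.52 ± 0.08), and the courses differed by -0.81 ± 0.20 (adjusted p = 0.00395). The summed level of the chemokine list, to which Ccl6 gave most, was 16843 to 19406 CPM at day 1 and 16600 to 24666 CPM at day 5.

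Acute-phase and antimicrobial proteins had 13 of 18 tested members higher and 0 lower (median 3.05); 2 were called lower without day 5 replicate 3. Hp, haptoglobin, which binds free haemoglobin, stood at 58.2, 42.4, 64.3 and 53.1 CPM at day 1 and at 873, 781, 765 and 557 CPM at day 5. Cp, the copper oxidase ceruloplasmin, went from 5.80, 4.93, 5.22 and 6.31 to 74.8, 138, 82.2 and 124 CPM. Neither overlapped between days. The log2 fold changes were 3.77 ± 0.18 and 4.24 ± 0.21 (adjusted p = 3.16e-07 and 3.16e-07). Both fell in uninfected cells (-0.79 ± 0.10 and -0.89 ± 0.17), so their courses ran in opposite directions and differed by 4.57 ± 0.21 and 5.13 ± 0.30. Lyz2, lysozyme, rose by 0.96 ± 0.23 (adjusted p = 0.00672), with replicate 4 the lowest of day 5 at 4639 CPM against 4306 CPM in the highest day 1 library; without the 3 libraries that stood apart the adjusted p was 0.0612.

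Of 13 enzymes that make itaconate, nitric oxide or oxidants 12 rose and 0 fell (median 1.29). Nos2, inducible nitric oxide synthase, had 0.0363, 0.0653, 0.0146 and 0 CPM at day 1, 9 counts in all, and 3.21, 52.0, 5.19 and 29.2 CPM at day 5 (9.35 ± 1.21, adjusted p = 0.000164). The rise was seen in each day 5 library, and replicates 2 and 4 again stood highest. Nos2 had 0 counts in uninfected day 1 libraries and 85 at uninfected day 5. It was thus called higher without exposure too (7.40 ± 0.94, adjusted p = 2.96e-05), a change whose size rests on 0 counts at day 1. The difference between courses was 2.005 ± 15.37 and was not called (adjusted p = 0.936). With 0 counts at uninfected day 1 the test could not show whether the courses differed. Mean levels at day 5 were 22.4 CPM with exposure and 0.301 CPM without. Acod1, which makes itaconate, went from between 59.1 and 63.3 CPM to between 326 and 888 CPM (3.29 ± 0.33, adjusted p = 3.97e-05). Slc7a2, an arginine transporter, rose by 1.69 ± 0.14, and Ncf4, a subunit of the phagocyte NADPH oxidase, by 1.45 ± 0.12. Both also rose in uninfected cells, though less (differences of 0.70 ± 0.15 and 0.88 ± 0.13). Over the list, 9 of 12 members rose and 2 fell in uninfected cells (median 0.51). The difference between courses was called for 5 of 13, 5 higher and 0 lower in the exposed course.

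NF-kB subunits and the inhibitors that NF-kB itself induces had 20 of 25 tested members higher and 2 lower (median 1.01), against 5 higher and 9 lower among 24 in uninfected cells. The difference between courses was called for 22 of the 25, 20 of them towards the exposed cells. Tnfaip3, the ubiquitin editor A20 that shuts off NF-kB, stood at 76.0, 68.4, 84.7 and 103 CPM and then at 311, 459, 291 and 442 CPM. Tnip3, an A20-binding inhibitor, went from 16.2, 13.4, 18.0 and 17.7 to 89.2, 144, 118 and 90.9 CPM. Days did not overlap for either gene. Their log2 fold changes were 2.19 ± 0.18 (adjusted p = 8.87e-06) and 2.77 ± 0.17 (adjusted p = 1.15e-06). Tnip1, of the same family as Tnip3, rose by 1.72 ± 0.16, and Traf1, an adaptor of TNF receptors, by 7.16 ± 0.66, from between 0.16 and 0.291 CPM to between 9.46 and 49.2 CPM. The members that fell were Tnfaip2 (-0.51 ± 0.11) and the kinase Map3k8 (-0.54 ± 0.16, adjusted p = 0.02), whose call was lost without day 1 replicate 4 or day 5 replicate 4 (adjusted p = 0.054 and 0.0562).

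The start region of Tnfaip3 is shown because the window before a start site is where the letters bound by NF-kB are looked for. It comes from RefSeq (GRCm38.p6, chr10:19015361-19015660, minus strand, 250 bases before to 50 after the start, 1 of 2 windows of the gene), with matches to the NF-kB consensus and to the AP-1 letters TGANTCA in capitals.
Tnfaip3: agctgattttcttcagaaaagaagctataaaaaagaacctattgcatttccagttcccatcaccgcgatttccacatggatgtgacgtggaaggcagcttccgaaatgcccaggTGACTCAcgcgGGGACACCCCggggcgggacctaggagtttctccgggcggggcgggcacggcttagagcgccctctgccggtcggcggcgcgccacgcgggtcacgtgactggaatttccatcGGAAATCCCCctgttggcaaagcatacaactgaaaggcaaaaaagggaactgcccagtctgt
A match to the NF-kB consensus on either strand was found in 14 of 25 windows of the list's genes (56.0%), a list that holds inhibitors which NF-kB itself induces. The share was 13.05% in windows of genes that rose at least 2-fold and 9.045% in those of genes that fell at least 2-fold. It was 10.3% in the 13751 windows of all tested genes with a window. TGANTCA was in 12.2% of the windows of genes that rose at least 2-fold, 4.65% of those that fell at least 2-fold and 5.76% of all. The windows of Il1b and Lcn2 held none of the motifs searched, which says only that these letters are not in the 300 bases looked at.

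AP-1 and immediate-early factors split: 7 of 17 rose and 6 fell (median 0.12), whereas 12 of 16 rose and 0 fell in uninfected cells. Fos, the prototype of the family, stood at 86.2, 95.1, 78.4 and 72.0 CPM at day 1 and at 40.8, 27.0, 39.6 and 27.2 CPM at day 5 (-1.30 ± 0.16, adjusted p = 0.000118), without overlap. In uninfected cells it rose by 1.36 ± 0.06, and the courses differed by -2.66 ± 0.18 (adjusted p = 5.96e-09). Myc, the growth-promoting factor, likewise fell with exposure (-0.59 ± 0.10) and rose without (0.62 ± 0.06). All 6 members that fell had risen in uninfected cells. Atf3, a stress-induced repressor, rose by 1.99 ± 0.31, and Fosl2 and Maff by 0.92 ± 0.11 and 0.87 ± 0.11. Of 22 feedback inhibitors of cytokine signalling 9 rose and 3 fell (median 0.13). Socs3, an inhibitor of interleukin-6 family receptors, rose by 2.01 ± 0.24, and Irak3, a brake on Toll-like receptor signalling, by 1.73 ± 0.16. The phosphatase Dusp5 fell (-0.46 ± 0.12). More of this list rose in uninfected cells, 13 of 22 with 3 lower (median 0.20). Socs3 rose there too (1.05 ± 0.09), and its courses differed by 0.97 ± 0.28, while Irak3 was not called there. The difference between courses was called higher in the exposed cells for 9 and lower for 7.

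Type I interferon-stimulated genes rose almost without exception: 33 of 34 were higher and 0 lower at day 5, with a median of 1.80. Rsad2, the antiviral enzyme viperin, stood at 107, 120.3, 72.4 and 123 CPM at day 1 and at 453, 1759, 342 and 2170 CPM at day 5 (3.48 ± 0.56, adjusted p = 0.000605). Ifi44 went from 3.52, 4.07, 2.33 and 4.11 to 50.4, 149.7, 55.8 and 157 CPM (4.88 ± 0.42, adjusted p = 1.59e-05). Day 5 replicates 2 and 4 were the highest for both genes, and replicates 1 and 3 still lay above all day 1 libraries. Zbp1, a sensor of left-handed nucleic acids, rose by 1.59 ± 0.14, and Trim30a by 2.17 ± 0.21. This group also rose with time alone: 22 of 31 were higher and 0 lower in uninfected cells (median 0.90), from much lower levels, with Rsad2 there at 0.945 ± 0.233 and 1.97 ± 0.554 CPM (SD, n = 4). The difference between courses was called for 14 of 34, 12 higher and 2 lower in the exposed course.

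The start regions of Saa3 and of Rsad2 are shown since they hold the core of the interferon-stimulated response element, GAAA, any 2 bases and GAAA, on the printed strand (Saa3) or the other one (Rsad2). Saa3 is from chr7:46715627-46715926 and Rsad2 from chr12:26456403-26456702 (RefSeq, GRCm38.p6, both minus strand), and the capitals mark that element and, in Rsad2, TGANTCA.
Saa3: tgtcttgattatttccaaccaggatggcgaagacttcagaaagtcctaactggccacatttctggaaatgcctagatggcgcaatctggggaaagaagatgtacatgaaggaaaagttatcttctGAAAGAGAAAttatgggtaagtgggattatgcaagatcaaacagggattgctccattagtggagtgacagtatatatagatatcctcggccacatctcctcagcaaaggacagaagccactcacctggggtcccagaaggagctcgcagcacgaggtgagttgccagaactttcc
Rsad2: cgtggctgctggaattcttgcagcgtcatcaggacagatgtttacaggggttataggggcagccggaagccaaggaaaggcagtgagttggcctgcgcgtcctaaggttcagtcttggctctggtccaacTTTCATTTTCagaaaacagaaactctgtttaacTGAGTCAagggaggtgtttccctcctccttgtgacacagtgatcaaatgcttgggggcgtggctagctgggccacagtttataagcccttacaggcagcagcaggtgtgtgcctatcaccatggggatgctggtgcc
The element was in 12 of 29 windows of the interferon-stimulated list (41.4%), 7.49% of windows of genes that rose at least 2-fold, 3.89% of those that fell at least 2-fold and 3.28% of all.

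Genes typical of interferon-gamma had 17 of 20 members higher and 1 lower (median 1.61), against 6 of 16 higher and 0 lower in uninfected cells. Gbp2, a GTPase that attacks vacuoles with microbes, went from 74.5, 73.1, 63.4 and 78.2 CPM to 259, 776, 264 and 763 CPM (2.84 ± 0.37, adjusted p = 0.000165). Replicates 2 and 4 stood close to each other and far above replicates 1 and 3, which in turn lay above day 1. The member that fell was the myeloid factor Irf8 (-0.82 ± 0.19, adjusted p = 0.00499), which rose in uninfected cells. Ciita, the master activator of class II genes, rose by 1.83 ± 0.17 with exposure but by 3.88 ± 0.14 without, and the difference between courses was -2.04 ± 0.22 (adjusted p = 1.24e-06).

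Genes of antigen presentation rose in both classes. Of 19 class I genes 16 rose and 0 fell (median 1.14, 7 higher and 3 lower of 16 in uninfected cells), among them H2-K1, a classical heavy chain (2.16 ± 0.17), and B2m, the light chain (1.67 ± 0.17). Of 11 class II genes 7 rose and 0 fell (median 1.27), with 8 of 10 higher in uninfected cells too (median 1.43); 1 member was called lower by DESeq2, by limma-voom, with RLE size factors, without the low-count filter, in a fit of all 16 libraries, and without day 5 replicate 3 or replicates 2 and 3. H2-Eb1, a class II beta chain, stood at 2.95, 2.53, 2.61 and 3.02 CPM and then at 44.2, 66.6, 64.1 and 57.9 CPM (4.39 ± 0.15, adjusted p = 4.41e-08). Cd74, the invariant chain, went from 101, 91.7, 97.0 and 92.5 to 517, 607, 594 and 623 CPM (2.62 ± 0.11, adjusted p = 1.92e-07). For both genes every day 5 library lay far above every day 1 library. In uninfected cells H2-Eb1 rose by 2.52 ± 0.33 and Cd74 by 1.67 ± 0.23, and the exposed course exceeded these by 1.88 ± 0.33 and 0.95 ± 0.22. The sources used here do not give how reads were shared among the near-identical class I genes, and values of single members carry that limit.

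Costimulatory and checkpoint ligands had 8 of 13 higher and 1 lower (median 1.06), against 7 of 12 higher and 2 lower in uninfected cells. Tnfrsf9, the receptor 4-1BB, went from 10.6, 8.67, 10.6 and 9.40 CPM to 279, 606, 557 and 411 CPM (5.56 ± 0.25, adjusted p = 3.16e-07). Cd86, which costimulates T cells, rose by 2.07 ± 0.26, and Cd274, the checkpoint ligand PD-L1, by 0.71 ± 0.18. The single member called lower, Vsir (-0.35 ± 0.13, adjusted p = 0.0403), overlapped between days and lost the call without any one of day 1 replicates 1, 2 and 3 and day 5 replicates 1, 3 and 4 (adjusted p = 0.0538 to 0.112).

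Receptors that sense or take up microbes moved both ways: 9 of 21 rose and 4 fell (median 0.00). Cd14, the lipopolysaccharide co-receptor, went from 8.41, 6.30, 8.50 and 9.01 CPM to 115, 276, 114 and 309 CPM (4.66 ± 0.36, adjusted p = 8e-06), and Clec4d, a lectin for mycobacterial glycolipid, rose by 2.03 ± 0.19. Mrc1, the mannose receptor, fell from 491, 529.6, 502 and 428 CPM to 134, 114, 76.9 and 82.7 CPM (-2.26 ± 0.18, adjusted p = 7.43e-06), and the nucleic acid receptor Tlr8 fell too (-1.31 ± 0.13). For Cd14 and Mrc1 the days did not overlap. The scavenger receptor Marco was not called (-0.43 ± 0.18, adjusted p = 0.0779) but was called lower without day 5 replicate 1 (-0.54, adjusted p = 0.0419), by DESeq2 (adjusted p = 0.0441), by limma-voom (adjusted p = 0.0375) and in a fit of all 16 libraries (adjusted p = 0.0313). Of 15 inflammasome and pyroptosis genes 9 rose and 0 fell (median 0.46). Those that rose included Nlrp3, the sensor (1.43 ± 0.18), Casp4, the caspase that binds lipopolysaccharide (1.57 ± 0.21), and Ninj1, which ruptures the plasma membrane (2.18 ± 0.26). With day 1 replicate 4 or day 5 replicate 2 left out, 1 fell. In uninfected cells 8 of the 15 rose and 0 fell (median 0.21), Nlrp3 by 0.85 ± 0.05. The difference between courses was called higher in the exposed cells for 5 and lower for 3. Of 11 complement genes 10 rose and 1 fell (median 1.35), with C3, the central component, at 762 to 878 CPM at day 1 and 1710 to 2774 CPM at day 5 (1.35 ± 0.16), and properdin (Cfp) as the one that fell (-0.35 ± 0.10).

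Of 15 metalloproteinase and plasminogen genes 13 rose and 1 fell (median 1.81). The gelatinase Mmp2 went from 8.27, 6.20, 8.27 and 8.95 CPM to 38.4, 45.0, 41.5 and 44.9 CPM (2.43 ± 0.12, adjusted p = 3.16e-07). The 4 day 5 values of Mmp2 were close to one another. Mmp8, a collagenase, was the one that fell, from 13.2, 13.5, 12.9 and 9.21 CPM to 0.851, 1.18, 0.97 and 0.954 CPM (-3.62 ± 0.18, adjusted p = 3.16e-07), while it rose in uninfected cells (0.59 ± 0.11). Of 11 secreted growth factors 8 rose and 1 fell (median 1.07). Pdgfb, a chain of platelet-derived growth factor, went from 4.04, 2.31, 2.96 and 5.00 CPM to 148, 352, 160.0 and 317 CPM (6.11 ± 0.38, adjusted p = 1.81e-06), and Areg, the epidermal growth factor receptor ligand amphiregulin, from between 0.875 and 1.13 CPM to between 18.9 and 55.0 CPM (5.24 ± 0.41). Gas6, the ligand of the receptors Axl and Mertk, was the member that fell (-2.13 ± 0.20, adjusted p = 2.13e-05). Of 11 prostaglandin and leukotriene enzymes 1 rose (Ptges, prostaglandin E synthase, 1.08 ± 0.11) and 5 fell (median -0.37), among them the leukotriene enzymes Alox5 (-1.65 ± 0.28) and Ltc4s (-1.28 ± 0.23), both of which rose in uninfected cells.

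Markers of alveolar macrophages did not move together. Of 27 tested markers 7 rose and 7 fell (median -0.02), close to the shares of all tested genes. Itgax, the integrin CD11c, rose from between 233 and 253 CPM to between 842 and 1081 CPM (1.93 ± 0.12), and Csf2rb, the signalling chain of the GM-CSF receptor, from between 1775 and 2157 CPM to between 3748 and 4548 CPM (1.06 ± 0.13). Fabp1 and Fabp4, fatty acid binding proteins, fell (-2.41 ± 0.34 and -1.40 ± 0.17), and so did the lectin Chil3 (-0.96 ± 0.22). In uninfected cells Fabp1 and Chil3 rose (1.46 ± 0.07 and 0.67 ± 0.18). The list's summed level was 25276 to 28679 CPM at day 1 and 24958 to 29546 CPM at day 5, and the days overlapped. Of 10 markers of alternative activation 4 rose and 3 fell (median 0.34), against 7 and 1 in uninfected cells. Arg1, arginase 1, stood at 0.266, 0.379, 0.204 and 0.103 CPM and then at 19.7, 20.5, 61.8 and 9.49 CPM (6.80 ± 0.65, adjusted p = 2.95e-05), and rose in uninfected cells too (7.83 ± 0.69); the difference between courses was not called (-1.04 ± 1.07, adjusted p = 0.483). Irf4 (3.40 ± 0.23) and the scavenger receptor Stab1 (4.23 ± 0.21) rose, and Klf4 fell (-0.47 ± 0.10). Of the general macrophage markers 6 of 14 rose and 2 fell, against 9 and 2 in uninfected cells. With exposure Csf1r, the receptor for macrophage colony-stimulating factor, went from 233, 209.6, 245 and 239 CPM to 695, 1021, 611 and 815 CPM (1.76 ± 0.16, adjusted p = 1.48e-05). Itgam (CD11b) rose by 1.19 ± 0.10, and Spi1, the lineage factor PU.1, and the uptake receptor Mertk fell (-0.42 ± 0.11 and -0.49 ± 0.10).

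**Figure D2:**
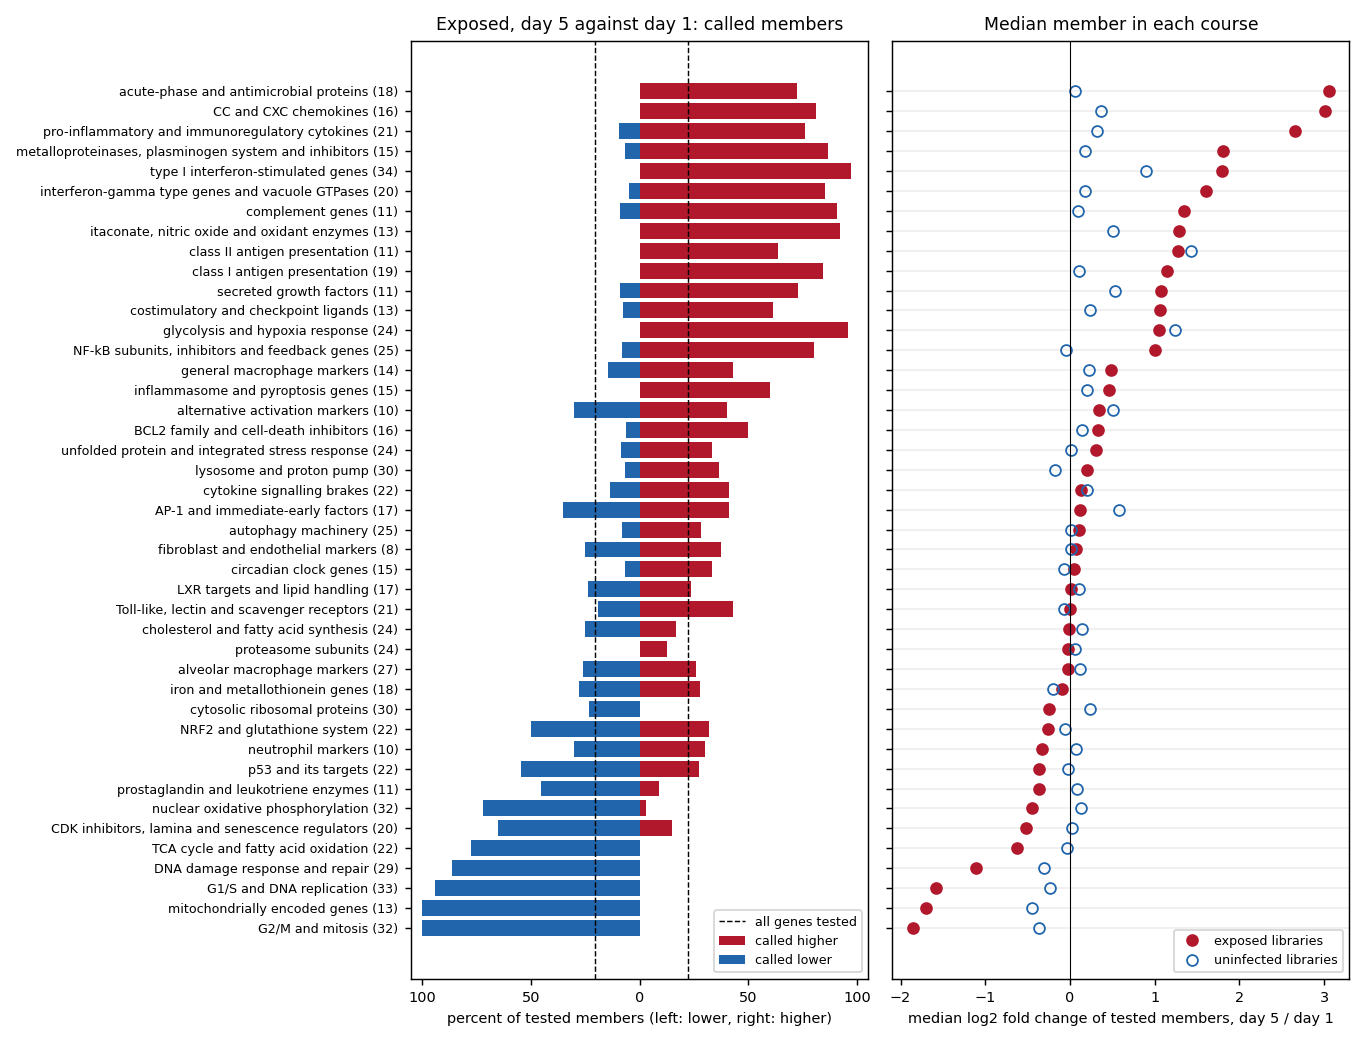
Left, percent of each list's tested members (number in brackets) called higher (red, to the right) or lower (blue, to the left) in exposed cells at day 5 against day 1, with dashed lines at the shares of all tested genes (22.2% and 20.7%); right, median log2 fold change of the tested members in exposed (filled) and uninfected (open) cells. Cytokine, chemokine and acute-phase lists are at the top with medians of 2.66 to 3.05 and the G2/M list at the bottom at -1.85, while the glycolysis and class II lists have similar medians in both courses.

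Genes of the cell cycle fell together. Of 33 genes that act in G1/S or replicate DNA, 31 fell and 0 rose (median -1.58), and of 32 genes of G2/M and mitosis all 32 fell at least 2-fold (median -1.85). In uninfected cells 24 and 27 fell, with medians of -0.23 and -0.37, and the fall in exposed cells was called deeper for 31 and for all 32. Mki67, the proliferation marker Ki-67, stood at 459, 452, 445 and 429 CPM at day 1 and at 239, 152, 207 and 122 CPM at day 5 (-1.30 ± 0.19, adjusted p = 0.000283). Cdc20, an activator of the anaphase-promoting complex, went from 29.5, 29.1, 27.1 and 25.1 to 8.97, 4.15, 6.55 and 3.75 CPM (-2.24 ± 0.25, adjusted p = 6.41e-05). Days did not overlap for either, and replicates 2 and 4, the high libraries for the cytokines, were the low ones. Aurka, a spindle kinase, fell (-1.76 ± 0.21), as did Tpx2, which activates it (-1.69 ± 0.20), the flap endonuclease Fen1 (-1.64 ± 0.16) and the replication licensing factor Cdt1 (-1.34 ± 0.15). The summed level of the G2/M list was 2464 to 2673 CPM at day 1 and 512.4 to 1148 CPM at day 5. Uninfected Mki67 also fell (-0.64 ± 0.12), and its courses differed by -0.67 ± 0.23 (adjusted p = 0.0332).

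The start regions of 2 of these genes are shown because both hold the pair of letters typical of mitotic genes, CCAAT and TTTGAA (the core of the cell cycle genes homology region), in capitals. They come from RefSeq (GRCm38.p6, minus strand), Aurka from chr2:172370521-172370820 and Cdc20 from chr4:118437294-118437593.
Aurka: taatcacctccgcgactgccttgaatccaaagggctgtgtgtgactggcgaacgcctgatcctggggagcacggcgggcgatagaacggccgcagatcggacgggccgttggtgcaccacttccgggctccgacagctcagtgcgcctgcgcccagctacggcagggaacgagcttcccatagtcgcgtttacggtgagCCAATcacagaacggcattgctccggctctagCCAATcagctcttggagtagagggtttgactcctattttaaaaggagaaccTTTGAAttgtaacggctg
Cdc20: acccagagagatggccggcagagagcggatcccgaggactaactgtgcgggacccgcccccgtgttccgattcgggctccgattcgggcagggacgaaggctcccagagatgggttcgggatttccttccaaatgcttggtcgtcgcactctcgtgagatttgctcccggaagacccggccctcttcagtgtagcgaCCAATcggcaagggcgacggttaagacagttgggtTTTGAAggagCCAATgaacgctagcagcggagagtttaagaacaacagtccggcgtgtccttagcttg
CCAAT was in 23 of 28 windows of the G2/M list (82.1%) and TTTGAA in 21 (75%). Among genes that fell at least 2-fold the shares were 47.2% and 22.7%, among those that rose at least 2-fold 34.9% and 14.4%, and among all windows 37.6% and 12.95%. Both strands were searched for each motif.

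DNA damage response and repair genes fell as well: 25 of 29 were lower and 0 higher (median -1.10), against 23 lower with a median of -0.31 in uninfected cells. Rpa1, a single-strand binding protein (-1.42 ± 0.18), Msh6, of mismatch repair (-1.08 ± 0.12), and Mdc1, a scaffold at double-strand breaks (-0.88 ± 0.12), were among them. Of 22 p53 pathway genes 12 fell and 6 rose (median -0.36). The death-promoting targets Bbc3 (PUMA, -1.26 ± 0.13) and Bax (-0.81 ± 0.10) fell, as did Trp53 itself (-0.39 ± 0.08), which fell in uninfected cells too (-0.39 ± 0.06), while the kinase Plk2 (2.43 ± 0.41) and the stress sensor Sesn2 (1.18 ± 0.21) rose.

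The list of CDK inhibitors, lamina and senescence regulators joins genes that are raised and genes that are lost in senescent cells. Its counts therefore give no direction of senescence. Most of its tested genes fell, while some rose or were not called. Cdkn1a, the CDK inhibitor p21, stood at 269.7, 263, 268 and 235 CPM at day 1 and at 211, 371, 186 and 328 CPM at day 5. Replicates 2 and 4 lay above and replicates 1 and 3 below the day 1 libraries, and the gene was not called (0.08 ± 0.20, adjusted p = 0.765). Cdkn2a, whose count pools p16 and p19ARF, fell from 12.9, 11.1, 11.8 and 10.8 CPM to 4.52, 3.01, 3.16 and 3.10 CPM (-1.75 ± 0.16, adjusted p = 1.68e-05), with no overlap. It was not called in uninfected cells (0.25 ± 0.11), and the courses differed by -1.999 ± 0.20. Cdkn2b, p15, was not called (0.39 ± 0.20, adjusted p = 0.139), though it was called higher without day 5 replicate 3 (0.51, adjusted p = 0.0395), and it rose in uninfected cells (0.80 ± 0.11). Lmnb1, lamin B1, fell from 83.0, 81.6, 80.04 and 74.3 CPM to 27.0, 11.6, 17.3 and 13.7 CPM (-2.19 ± 0.23, adjusted p = 4.66e-05), more than in uninfected cells (interaction -1.78 ± 0.26, adjusted p = 5.95e-05). Glb1, the lysosomal beta-galactosidase, rose by 0.64 ± 0.15 (adjusted p = 0.00503), and the chromatin protein Hmga1 by 2.04 ± 0.29. Cyclin D3 (Ccnd3) fell from between 121 and 149.9 CPM to between 39.0 and 50.8 CPM (-1.68 ± 0.12) while it rose in uninfected cells (0.37 ± 0.06), and the pocket protein Rbl1 (p107) fell (-1.53 ± 0.15). Of the 20 tested members of this list 13 fell and 3 rose (median -0.52).

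Of 16 genes of the BCL2 family and death inhibitors 8 rose and 1 fell (median 0.33). In uninfected cells 9 of 16 rose and 2 fell (median 0.15), with Bcl2a1d up by 0.75 ± 0.09. The difference between courses was called higher in the exposed cells for 4 and lower for 2. With exposure Cflar, which blocks caspase-8 (1.497 ± 0.19), Bcl2a1d (1.46 ± 0.15) and Bcl2l2, which encodes BCL-w (0.88 ± 0.12), all opposed to cell death, rose. The death promoter Bcl2l11 (BIM) fell (-0.69 ± 0.10). Bcl2l1, which encodes BCL-xL, was not called (-0.21 ± 0.15, adjusted p = 0.271), though it was called lower without the 3 libraries that stood apart (-0.25, adjusted p = 0.0232). Bcl2a1d has near-identical copies, and its value carries the limit of shared reads.

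Respiratory genes fell and glycolytic genes rose. All 13 mitochondrially encoded genes fell (median -1.70), which follows the lower mitochondrial share of counts given above. For mt-Nd1, a complex I subunit, the day 1 libraries held 1957, 2378, 2674 and 2780 CPM and the day 5 libraries 1084, 736, 636 and 556 CPM (-1.70 ± 0.21, adjusted p = 0.000113), and the interaction was -1.44 ± 0.22. Over all 13 genes it was called for 6. Of 32 nuclear respiratory chain genes 23 fell and 1 rose (median -0.45), while 10 rose and 2 fell in uninfected cells, and the courses differed for 23, all lower in exposed cells. Ndufs1 and Ndufv1, complex I subunits, fell (-0.72 ± 0.11 and -0.68 ± 0.12). The member called higher, Uqcrq (0.38 ± 0.12), lost the call without day 1 replicate 1, 2 or 3 (adjusted p = 0.0847, 0.0855 and 0.0635). Of 22 genes of the TCA cycle and fatty acid oxidation 17 fell and 0 rose (median -0.63), with Idh1, the cytosolic isocitrate dehydrogenase, going from 195, 209, 199 and 163 CPM to 65.5, 44.5, 57.0 and 36.1 CPM (-1.91 ± 0.18, adjusted p = 1.99e-05) and Hadhb, of mitochondrial beta-oxidation, falling as well (-1.01 ± 0.12).

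In contrast, 23 of 24 genes of glycolysis and the hypoxia response rose and 0 fell (median 1.05). Slc2a1, the glucose transporter GLUT1, stood at 106, 99.9, 106 and 93.6 CPM and then at 370.4, 721, 369.9 and 579 CPM (2.33 ± 0.21, adjusted p = 1.59e-05), with replicate 2 the highest and no overlap. This rise was also seen without exposure: 22 of 24 rose and 1 fell in uninfected cells (median 1.24), Slc2a1 by 1.96 ± 0.06, and the difference between courses was called for 4 genes in each direction. Pfkl, a phosphofructokinase, rose by 1.61 ± 0.14 with and 1.97 ± 0.06 without exposure, and the lactate transporter Slc16a3 by 1.34 ± 0.13 and 1.48 ± 0.07.

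Lipid genes showed no single direction. The synthesis and LXR lists had shares of calls near those of all tested genes (22.2% higher and 20.7% lower). Of 24 genes of cholesterol and fatty acid synthesis 4 rose and 6 fell (median -0.01, 8 higher without day 5 replicate 3). Those that fell included Srebf1, the lipogenic regulator (-1.26 ± 0.20), Fasn, fatty acid synthase (-1.07 ± 0.14), and the elongase Elovl6 (-1.90 ± 0.27). The cholesterol enzymes Dhcr7 (0.71 ± 0.13) and Cyp51 (0.79 ± 0.19) rose. Abca1, which exports cholesterol, went from 205, 225, 210.2 and 214 CPM to 612, 825, 522 and 699 CPM (1.64 ± 0.14, adjusted p = 1.13e-05), without overlap, and Npc2, a lysosomal cholesterol carrier, rose by 0.95 ± 0.16. The LXR target list as a whole had 4 higher and 4 lower of 17 (median 0.01); with day 1 replicate 1, 2 or 3 or day 5 replicate 4 left out, 2 were lower.

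Of 30 lysosomal genes 11 rose and 2 fell (median 0.20), against 3 higher and 16 lower in uninfected cells, and 14 differed between courses in the direction of the exposed cells and 1 in the other. Ctsk, cathepsin K, went from 1262, 1275, 1282 and 1035 CPM to 2342, 3643, 2694 and 2422 CPM (1.20 ± 0.17, adjusted p = 0.000229). Tfeb, the transcription factor of lysosome genes, fell (-1.14 ± 0.15). The second gene called lower, Atp6v1b2 of the proton pump (-0.43 ± 0.14), lost the call without day 1 replicate 1, 2 or 3 or day 5 replicate 1 (adjusted p = 0.0576 to 0.0799). Autophagy genes had 7 of 25 higher and 2 lower (median 0.11; 1 lower without day 1 replicate 1, 2 or 3 or day 5 replicate 4, and 5 lower without day 1 replicate 4 or day 5 replicate 2). The share of autophagy genes called higher lay near the 22.2% of all tested genes. The phosphoinositide-binding Wipi1 (1.21 ± 0.12) and the autophagy receptor Optn (0.59 ± 0.11) rose.

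Of 22 genes of the NRF2 and glutathione system 11 fell and 7 rose (median -0.26). Gclc, the rate-limiting enzyme of glutathione synthesis, went from 88.1, 91.9, 91.7 and 86.4 CPM to 42.5, 44.0, 37.8 and 41.1 CPM (-1.11 ± 0.08, adjusted p = 4.6e-06), and Gsr, glutathione reductase, fell (-0.997 ± 0.14). Hmox1, haem oxygenase 1, rose from 256, 246, 275 and 228 CPM to 567, 1169, 501 and 1079 CPM (1.72 ± 0.26, adjusted p = 0.000349). The values of Gclc were tight at both days and those of Hmox1 were high in replicates 2 and 4. The number that fell was 5, 7 and 6 without day 1 replicate 1, 2 or 3. Iron genes split 5 to 5 among 18 (3 lower without day 1 replicate 1 or 3): Slc40a1, the iron exporter ferroportin, fell (-1.55 ± 0.18), Slc11a2, the iron importer DMT1, rose (1.45 ± 0.17), and Fth1, ferritin heavy chain, was called higher (0.66 ± 0.20, adjusted p = 0.0215), a call lost without day 1 replicate 1, 2 or 4 (adjusted p = 0.0567, 0.0707 and 0.0574). For the iron list both shares of calls lay near those of all tested genes (22.2% higher and 20.7% lower).

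Of 24 genes of the unfolded protein and integrated stress response 8 rose and 2 fell (median 0.30; 13 rose without day 5 replicate 3, and 4 fell without replicate 2). Chac1, an integrated stress response target, rose (1.44 ± 0.19), Xbp1 fell (-0.75 ± 0.09), and Hspa5, the chaperone BiP, was not called (0.57 ± 0.23, adjusted p = 0.0661) except without day 5 replicate 3 (0.74, adjusted p = 0.00682), without replicates 2 and 3 (0.50, adjusted p = 0.0174), with a filter of 1 CPM in 4 libraries (adjusted p = 0.048), by DESeq2 (adjusted p = 0.0293), in a fit of all 16 libraries (adjusted p = 0.011) and without day 1 replicate 4 and day 5 replicates 2 and 3 together (adjusted p = 0.0265). Of 24 proteasome genes 3 rose and 0 fell (median -0.02), led by Psmb6 (0.71 ± 0.15, 0.50 ± 0.08 in uninfected cells); with any day 1 library or day 5 replicate 2 left out 1 rose, and 2 fell without day 1 replicate 4 or day 5 replicate 2. Ribosomal protein genes had 0 of 30 higher and 7 lower (median -0.25), and 24 lower without day 5 replicates 2 and 3. The share lower with all libraries lay near the 20.7% of all tested genes. With 1 library left out, 2 were lower without day 1 replicate 1 or 3, 4 without day 1 replicate 2 or day 5 replicate 4, 11 without day 5 replicate 2 and 13 without day 5 replicate 3. In uninfected cells 18 rose, and the difference between courses was called for 20, all lower in exposed cells. Clock genes had 5 of 15 higher and 1 lower (median 0.05, 2 lower without day 5 replicate 3), with Per2 rising (0.80 ± 0.12) and falling in uninfected cells (-0.50 ± 0.10).

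Markers of other cell types were looked for as well. Of 14 neutrophil markers 10 were tested, 3 rose and 3 fell (6 fell without day 5 replicate 3), and their summed level was 963.3 to 1220 CPM at day 1 and 470.8 to 953.7 CPM at day 5. S100a8, a subunit of calprotectin (755 to 1042 and 403 to 872 CPM), and the chemokine receptor Cxcr2 (159 to 189.7 and 48.9 to 108 CPM) made up most of that sum, and Retnlg was at 0; Cxcr2 and the members named at 0 in the other lists were picked after their values were seen. The granule protein genes Camp and Ngp rose to 3.54 to 6.43 and 2.91 to 3.99 CPM. T and NK cell markers summed to 7.81 to 9.07 CPM at day 1 and 13.5 to 19.9 CPM at day 5, with Cd3e, Cd3g, Cd8a and Gzma (4 of 13) at 0 counts in every exposed library. Of the 3 tested members 2 rose, both at least 2-fold, and 0 fell. Klrb1c was among those that rose, and its call was lost without day 1 replicate 2 or 3 or day 5 replicate 1. Dendritic cell markers summed to 17.5 to 23.8 and 28.9 to 38.0 CPM (Flt3 and Cd209a, 2 of 9, at 0). All 3 tested members rose, Ccr7 among them. The call of Ccr7 was lost without day 1 replicate 1, 2 or 4 or day 5 replicate 3 or 4. Epithelial markers summed to 34.6 to 42.5 and 14.8 to 24.9 CPM, mostly Cdh1, with Epcam, Krt8, Sftpc and Sftpa1 (4 of 10) at 0. B cell markers summed to 13.4 to 14.8 CPM at day 1 and 38.4 to 78.5 CPM at day 5, almost all of it Blnk (37.8 to 78.2 CPM at day 5), an adaptor that myeloid cells express too. Fibroblast and endothelial markers summed to 317.6 to 363.6 CPM at day 1 and 158.3 to 212.3 CPM at day 5, most of it Vwf (-0.95 ± 0.12), which encodes von Willebrand factor, with Col1a2 and Lum (2 of 12) at 0. Of the 8 tested members 3 rose and 2 fell: the growth factor receptor gene Pdgfrb went from 0.157, 0.183, 0.292 and 0.37 CPM to 2.40, 6.22, 3.70 and 5.58 CPM (4.20 ± 0.38), and Cdh5, which encodes the endothelial cadherin, from 0.121, 0.157, 0.204 and 0.0411 to 2.60, 5.05, 1.15 and 2.72 CPM (4.39 ± 0.51). Whether other cells had a part in any result was not tested.

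Ranked by size among genes at 5 CPM or more, the leading rises beside Nos2 and Arg1 were those of Cldn34b4, Vtcn1, H2-M2, Carmil1, Hgfac, Penk, Mir155hg, Traf1, H2-Q7 and Astn2, with log2 fold changes from 6.76 ± 0.39 to 9.20 ± 0.51. Only called genes whose days did not overlap were ranked, for rises and for falls. Predicted, clone and RIKEN names were left out. H2-M2, a nonclassical class I gene, stood at 0.86, 0.757, 0.948 and 1.05 CPM at day 1 and at 116, 280.1, 161 and 321 CPM at day 5 (7.94 ± 0.38, adjusted p = 3.16e-07). Mir155hg, the host transcript of the inflammatory microRNA miR-155, went from 0.327, 0.183, 0.219 and 0.37 to 26.2, 41.3, 46.3 and 74.5 CPM (7.44 ± 0.38, adjusted p = 5.37e-07). Penk, the precursor of the enkephalin opioid peptides, went from 0.0848, 0.0522, 0.0146 and 0.0411 to 3.21, 14.8, 4.31 and 15.1 CPM (7.48 ± 0.71, adjusted p = 2.79e-05). The days did not overlap for these genes, as the ranking required, and replicate 4 was the highest for all 3. Vtcn1, the checkpoint ligand B7-H4, reached 4.15 to 7.73 CPM, and Hgfac, the activator of hepatocyte growth factor, 7.24 to 18.8 CPM, from 0 to 0.0411 and 0.0206 to 0.146 CPM at day 1. Cldn34b4 and Vtcn1 had 0 counts in all 8 uninfected libraries.

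The leading falls included those of Mmp8, Cytip, Bmx, Rnase6, Slc39a12, Ckmt1, Vstm2a, Frmpd1, Id1, Mogat2 and Fabp1. Cytip, which restrains integrin adhesion, went from 274, 301, 277 and 246 CPM to 54.2, 23.2, 49.3 and 23.1 CPM (-2.87 ± 0.29, adjusted p = 3.74e-05). Id1, an inhibitor of basic helix-loop-helix factors, went from 78.4, 83.1, 80.7 and 64.1 to 18.0, 8.30, 20.9 and 8.93 CPM (-2.44 ± 0.29, adjusted p = 9.45e-05). For either gene the days did not overlap, as the ranking required. Rnase6, an antimicrobial ribonuclease, Ckmt1, mitochondrial creatine kinase, and Bmx, a TEC family kinase, fell as well (-2.83 ± 0.39, -2.57 ± 0.40 and -2.84 ± 0.28). Of these 11 genes 9 rose in uninfected cells, by 0.25 ± 0.08 (Vstm2a) to 1.46 ± 0.07 (Fabp1), and Slc39a12, a zinc transporter, fell in both.

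Some genes had no counts at day 1. Among the called genes, 25 had 0 counts in all 4 exposed day 1 libraries, and 1 had 0 counts at day 5. Osmr, the receptor for oncostatin M, had 0 counts at day 1 and 1.48, 4.499, 1.72 and 3.78 CPM at day 5, at least 264-fold higher against a floor of 3 counts over the day 1 group (0.0109 CPM). Gimap8, a GTPase of the immunity-associated family, had 3.13, 2.97, 3.23 and 3.78 CPM after 0 counts, and Nppc, the C-type natriuretic peptide precursor, 0.618, 4.34, 1.27 and 4.14 CPM (at least 236-fold). The 4 values of Gimap8 were nearly equal, while Osmr and Nppc were high in replicates 2 and 4. Such floors cover counting error only.

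The exposed course was then set against that of uninfected cells. Among 15404 genes tested in all fits, 3130 rose in exposed cells, and 1032 of them also rose in uninfected cells (33.0% of the exposed and 31.2% of the 3310 uninfected rises), while 410 fell there. Of 3380 that fell in exposed cells, 1203 fell in uninfected cells too (35.6%, and 39.7% of the 3029 uninfected falls), and 532 rose. The interaction was called in the direction of the exposed change for 1948 of the genes that rose (62.2%) and 2369 of those that fell (70.1%). Among genes changed at least 2-fold it was called for 905 of 1343 that rose (67.4%) and 878 of 986 that fell (89.05%). Over all 17190 genes in that fit, the exposed course was higher for 2826 (16.4%) and lower for 3347 (19.5%). The balance depended on the scaling and the tool, with 3062 higher and 2992 lower under RLE size factors and 3356 higher and 3245 lower by DESeq2.

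Cd244a, a receptor of the SLAM family, moved in opposite directions: it stood at 2.72, 2.83, 2.51 and 2.88 CPM at exposed day 1 and at 1.25, 0.699, 1.67 and 0.624 CPM at exposed day 5, but rose from 3.49 ± 0.197 to 49.1 ± 13.4 CPM (SD, n = 4) in uninfected cells. The exposed change was -1.36 ± 0.30, the uninfected one 3.83 ± 0.21 and the difference -5.19 ± 0.33 (adjusted p = 9.29e-09). Among the positive differences, Col5a3, a collagen chain, rose from 2.88, 1.59, 2.55 and 2.53 CPM to 89.0, 251, 99.9 and 211 CPM (6.09 ± 0.39) while it fell in uninfected cells (-0.66 ± 0.21). Tnfrsf11b, the decoy receptor osteoprotegerin, rose from between 0.157 and 0.438 CPM to between 8.85 and 30.7 CPM (6.19 ± 0.46) and was at 0.0102 ± 0.00695 CPM in uninfected cells at day 5. For genes near 0 in uninfected cells, such as Tnfrsf11b, H2-Q7 and Carmil1, the size of the difference rests on very few counts.

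**Figure D3:**
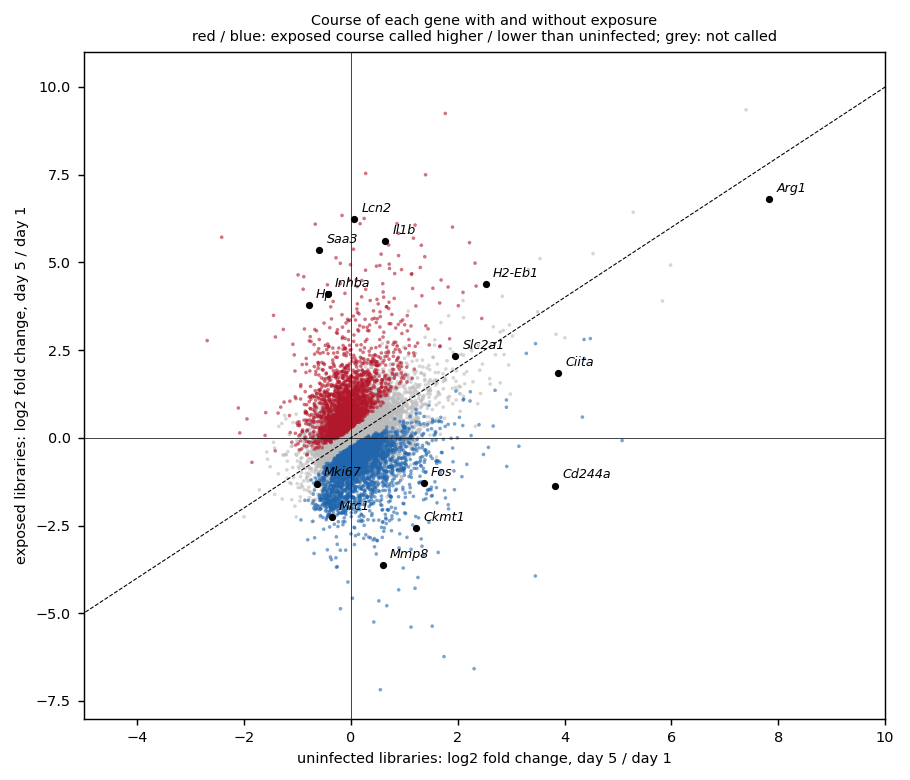
Log2 fold change of day 5 over day 1 for 15404 genes, uninfected libraries on the horizontal and exposed libraries on the vertical axis, coloured by the call of the difference between courses, with the dashed line at equality. Il1b, Lcn2, Saa3 and Hp lie high near or left of 0, Arg1, Slc2a1 and H2-Eb1 rise in both courses, and Fos, Ckmt1, Mmp8 and Cd244a lie to the lower right, where exposed cells fell and uninfected cells rose.

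Which day 5 library was the highest differed between the groups of genes. Over all tested genes the highest day 5 library was replicate 1 for 19.1%, replicate 2 for 30.4%, replicate 3 for 33.5% and replicate 4 for 16.9%. Among genes that rose at least 2-fold the shares, in the same order, were 4.60%, 34.0%, 35.5% and 25.9%. For those that fell at least 2-fold they were 58.3%, 6.13%, 31.5% and 4.12%. Of the 33 interferon-stimulated genes that rose, replicate 4 was highest for 24, replicate 2 for 8, replicate 3 for 1 and replicate 1 for 0. Of the 16 cytokines that rose, replicate 2 was highest for 10, and of the 23 glycolytic genes for 21. Of the 32 falling G2/M genes, replicate 1 was highest for 28 and replicate 3 for 4, while the lowest was replicate 4 for 20 and replicate 2 for 12. Csf3, the granulocyte growth factor, was among the genes with the widest spread, at 1.46, 11.6, 1.09 and 8.27 CPM against 0.145, 0.209, 0.16 and 0.288 CPM at day 1 (4.83 ± 0.79, adjusted p = 0.000692), as was Slamf7, a SLAM family receptor, at 2.77, 20.5, 5.24 and 24.7 CPM against 0.375, 0.209, 0.16 and 0.247 CPM (5.72 ± 0.74, adjusted p = 0.000164). Each still lay above day 1 in all 4 libraries. Class II genes and Hp spread much less, and Arg1 was highest in replicate 3. What sets these replicates apart was not tested.

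**Figure D4:**
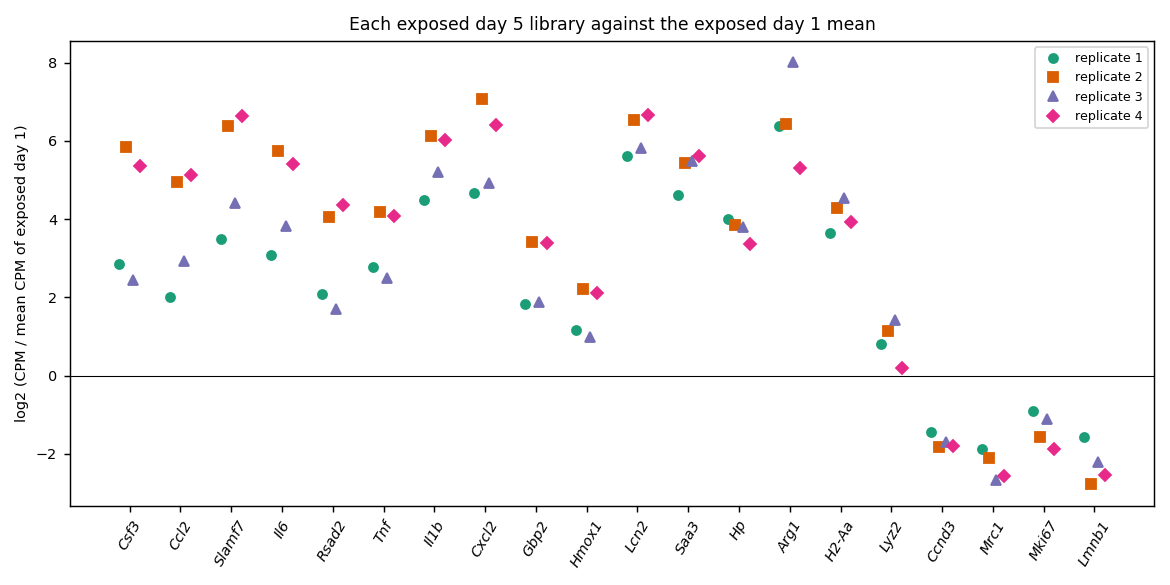
Log2 ratio of each exposed day 5 library (symbols and colours for replicates 1 to 4) to the mean CPM of the 4 exposed day 1 libraries, for 20 genes. Replicates 2 and 4 are above replicates 1 and 3 from Csf3 to Lcn2 and below them for Lmnb1 and Mki67, while Hp and Ccnd3 show little spread.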

How the data were processed

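RNA was sequenced from 16 cultures of the MPI-2 line, and the deposited values are whole-number counts of reads per gene, 1 file per library. Per the submitters' processing notes the reads were aligned with STAR to GRCm39, and the deposited counts are the reverse-strand kind by the files' own names; the STAR version, the annotation release and the handling of reads shared between near-identical genes are not given in the sources used here. Gene symbols came from a GENCODE M21 table matched on identifiers without their version (52083 of 55359; genes without a symbol held 0.449% of counts), and no coordinates were taken from it.

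Groups came from the labels. The exposed course (day 5 against day 1), the uninfected course and their difference (an interaction over 16 libraries) were each tested with edgeR 4.0.16 in R 4.3.3: filterByExpr, TMM scaling, quasi-likelihood test, Benjamini-Hochberg adjustment over all tested genes, threshold 0.05. CPM use the TMM scale of all 16 libraries. Library measures were compared by exact permutation (scipy 1.17.1). Replicates differed beyond sampling noise in every pair, so each counted once. With 237 genes the text could name the 3 markers, the 12 largest rises and 12 largest falls at 5 CPM or more, the 8 largest differences between courses in each direction, up to 3 genes of smallest p, the most abundant member and up to 2 members against the majority per list, 13 preset genes, the 6 of widest day 5 spread, and up to 6 with 0 counts on 1 day; some of these are not reported here. The ranked rises and falls were kept to called genes whose days did not overlap. Predicted, clone and RIKEN names were left out of the rankings by size, difference or spread. The markers and the 47 gene lists were chosen with earlier results of these data known. On data simulated for the exposed comparison (16404 genes) edgeR recovered 30%, 84%, 100% and 100% of genes changed by 0.5, 1, 2 and 4 on the log2 scale. The simulation changed 50 genes of each size, all with a mean above 1 CPM, and gave both days the same dispersion per gene. In the data the median spread was 0.299 at day 5 and 0.144 at day 1, so recovery in the data may differ. Alternatives covered the filter, the scaling, limma-voom (limma 3.58.1), DESeq2 1.42.0, a fold threshold, fewer libraries and a replicate block. Figures were drawn with matplotlib 3.10.9.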

Additional observations from a re-analysis of the deposited data

Results flagged for a closer look

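Single libraries stood apart from their group in 5 of 100 sets of values examined, and chance alone marks about 5% of such sets. Exposed day 1 replicate 4 had 12311 genes above 1 CPM, more than the other day 1 libraries, and held the lowest day 1 levels of Mmp8 (9.21 CPM) and Mogat2 (13.8 CPM). Day 1 replicate 3 held the highest day 1 level of Astn2 (0.175 CPM), and day 5 replicate 1 the highest day 5 level of Cdkn2a (4.52 CPM).

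The change from day 1 to day 5 differed between exposed and uninfected cells by the interaction test (edgeR, adjusted p under 0.05) for the markers and the genes that lead that ranking. On the log2 scale, exposed minus uninfected, the differences of the markers were 4.98 for Il1b, 6.19 for Lcn2 and 5.94 for Saa3. The leading positive ones were 9.17 for Tnfrsf11b, 8.93 for H2-M2, 8.51 for Carmil1, 8.27 for H2-Q7, 8.13 for Slamf7, 7.80 for Traf1, 7.37 for Mir155hg and 6.76 for Col5a3. The leading negative ones included -5.47 for Skint3, -5.19 for Cd244a, -4.29 for Ankrd35, -4.21 for Mmp8, -4.06 for Rnase2b, -3.89 for Rnase6 and -3.87 for Fabp1.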

How the results depend on the processing

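With replicates 1 and 2 alone 1752 genes were called higher and 1471 lower in exposed cells at day 5, with replicates 3 and 4 alone 1601 and 1206. By at least 2-fold, 1221 were higher and 603 lower with replicates 1 and 2 alone, and 1122 were higher with a minimum of 1 CPM in 4 libraries; fewer samples or genes entered each of these. Leaving out 1 library gave 2978 to 3892 genes higher and 2673 to 3757 lower, 1746 to 1995 and 901 to 1227 by at least 2-fold, 2761 to 3427 and 2610 to 3106 in uninfected cells, and 2461 to 3450 and 3009 to 3920 for the difference between courses. No named gene reversed its direction as a called change, but the balance of higher and lower calls did turn in places. The exposed course had 3546 higher and 3672 lower without day 5 replicates 2 and 3, and the uninfected course 2874 and 2929 without uninfected day 5 replicate 3. The difference between courses had 2730 higher and 2703 lower without the low-count filter, 3062 and 2992 with RLE size factors and 3356 and 3245 by DESeq2, against 2826 and 3347. Among the gene lists, the balance turned under at least 1 alternative for proteasome subunits (3 higher and 0 lower, then 1 and 3 without day 5 replicates 2 and 3), the NRF2 system (7 and 11, then 6 and 5 without day 1 replicate 1) and cholesterol and fatty acid synthesis (4 and 6, then 8 and 6 without day 5 replicate 3). DESeq2 called 3924 higher and 3510 lower, and the fit over all 16 libraries 4406 and 4335. Without exposed day 5 replicates 2 and 3 the mitochondrial share differed by -1.18 points and the share of the 50 leading genes by 0.702 points (exact permutation p = 0.133 each, the smallest that 4 against 2 allows). The labels number replicates without saying that a number was shared, and deviations of same-numbered libraries correlated at -0.0128, 0.161, -0.169 and 0.0275, so they were not treated as paired; the replicate block gave 3227 higher and 3085 lower, and 5 named genes were not called with it: Vsir (adjusted p = 0.0539), Atp6v1b2 (0.0509), Atg3 (0.0614), Fth1 (0.0683) and Ccr7 (0.0593). Of 237 named genes 224 were called, and 14 of these lost the call with some single library left out. Leaving out day 1 replicate 4 together with day 5 replicates 2 and 3 was chosen after seeing the data.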
